A study of Mus musculus with 17 samples.

Results

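Brain endothelial cells line the vessels of the brain and form the blood-brain barrier. The genes described here are 10 of the 24498 gene symbols in the count table, chosen by symbol as endothelial and barrier markers: Cldn5, Cdh5, Pecam1, Esam, Flt1, Kdr, Tek, Slco1a4, Abcb1a and Ly6c1. The rule uses the symbol and no measured value, but the set was put together with earlier results of these data known. Their levels were compared over the 6 groups of a bulk RNA-seq study of mouse dorsal hippocampus.

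The study asked what loss of Acss2, which encodes the acetate-using enzyme acetyl-CoA synthetase 2, does to mice injected with pathological tau. Slices of dorsal hippocampus holding CA1, CA2, CA3 and the dentate gyrus came from wild-type (WT) or ACSS2KO (KO) mice bred by homozygous crosses of F1 progeny. At 6 months of age the mice had been injected intracranially with AD Tau, which is tau purified from brains of patients with Alzheimer's disease, or with PBS, and tissue was taken 6 months later. The 12 male libraries fall into WT PBS, WT Tau, KO PBS and KO Tau, 3 in each, and the 5 female libraries are 2 of WT Tau and 3 of KO Tau. No female received PBS, so sex was compared under Tau alone. Every mouse was perfused with PBS and then with paraformaldehyde before dissection, per the labels, and the side of the brain that was sampled is not stated for these libraries in the sources used here. The sources name no cell type to which the KO is restricted, so it does not model a loss in endothelium alone.

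Endothelial cells of brain vessels are held to each other by tight and adherens junctions, which close the path between cells. They carry importers and efflux pumps that decide what crosses the cell itself, and they depend on VEGF and angiopoietin signals read by receptor tyrosine kinases on their surface. In hippocampal tissue they are a minority beside neurons and glia. In bulk RNA, more cells of a type and more RNA per cell cannot be told apart.

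Among the 10 genes, 7 were higher in female than in male Tau-injected mice, led by Ly6c1 at 2.41-fold and Slco1a4 at 1.85-fold. The same test called 11.4% of all 15419 genes as higher in females. Sex cannot be told apart from the series of library numbers in the labels. None of the 10 passed the test for AD Tau or loss of Acss2 in male mice, alone or together, or for loss of Acss2 in females. The same tests called at most 0.00662% of all genes. Libraries of the same group differed in all 10 genes together, with an SD within groups of 0.25 for the mean log2 level of the 10.

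Upstream sequence is shown for the 4 genes on which these statements turn, because the members moved together within groups. RefSeq promoter windows for GRCm38.p6, each of 250 bases before and 50 bases after a gene start, were found for 7 of the 10 genes (8 windows, of which Ly6c1 has 2 that overlap and the upper is shown). Pecam1, Cdh5 and Esam had no entry. The 250 upstream bases are printed 5′ to 3′ on the strand of the gene. Ly6c1 and Slco1a4 had the largest difference between sexes, while Cldn5 and Kdr did not pass that test. Capitals mark 3 motifs, read on both strands, so that some appear as their reverse complement. The first is the core that ETS factors bind, GGAA. The second is the GC box of promoters, with the letters GGGCGG. The third is a motif of SOX factors, spelled ACAATG.
Ly6c1, chr15:75048838-75049087, minus strand: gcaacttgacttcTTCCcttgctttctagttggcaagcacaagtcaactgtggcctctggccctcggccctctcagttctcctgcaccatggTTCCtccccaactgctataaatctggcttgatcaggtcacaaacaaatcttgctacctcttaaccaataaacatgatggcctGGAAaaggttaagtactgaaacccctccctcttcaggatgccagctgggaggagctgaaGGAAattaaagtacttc
Slco1a4, chr6:141856221-141856470, minus strand: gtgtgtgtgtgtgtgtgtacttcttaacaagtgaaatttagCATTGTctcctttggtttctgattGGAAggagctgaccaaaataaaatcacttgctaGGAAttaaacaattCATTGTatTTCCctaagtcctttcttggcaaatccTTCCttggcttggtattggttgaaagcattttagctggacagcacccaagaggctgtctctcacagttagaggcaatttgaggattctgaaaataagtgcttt
Cldn5, chr16:18776597-18776846, plus strand: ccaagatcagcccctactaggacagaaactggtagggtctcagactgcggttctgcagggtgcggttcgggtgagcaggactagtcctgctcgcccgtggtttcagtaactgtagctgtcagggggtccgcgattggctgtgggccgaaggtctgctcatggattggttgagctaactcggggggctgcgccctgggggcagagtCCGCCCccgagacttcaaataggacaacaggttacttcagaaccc
Kdr, chr5:75978456-75978705, minus strand: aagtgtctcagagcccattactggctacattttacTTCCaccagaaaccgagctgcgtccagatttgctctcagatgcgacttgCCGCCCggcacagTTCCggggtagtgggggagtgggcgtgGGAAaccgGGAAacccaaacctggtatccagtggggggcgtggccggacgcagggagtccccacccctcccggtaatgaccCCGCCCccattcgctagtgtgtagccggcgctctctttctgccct
The upstream bases of Ly6c1 and Slco1a4 hold no GC box, and 48.4% and 39.2% of them are G or C. Those of Cldn5 and Kdr are richer, at 59.6% and 61.6%, with 1 and 2 GC boxes, and Flt1 has 3 at a G and C content of 70.4%. A GC box is present in 32.7% of the 32851 windows when only upstream bases are read. The window of Slco1a4 holds ACAATG at 2 places, which begin 209 and 138 bases before the start, and 10.7% of all windows hold that motif upstream. The ETS core is so short that 93.4% of all windows hold it, and Cldn5 is the only member with a window whose upstream bases lack it. The longer ETS motifs CAGGAAG and CCGGAAG, which contain the core, were in 10.8% and 6.91% of windows and in no member window. The window of Abcb1a, which lies well upstream of its GENCODE start, holds the forkhead motif GTAAACA, as do 3.17% of windows. A motif of GATA-binding factors, AGATAA, is held by 9.99% of windows and by no member's upstream bases. These matches describe letters and no binding was measured.

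All 10 genes were measured well above the counting floor in every library. Total counts ran from 14183131 to 22463635 per library, so that 3 counts, the most that a reading of 0 leaves room for, came to 0.134 to 0.212 CPM, which are counts scaled to the total of the library. The lowest count of a member in any library was 135, for Cdh5. The intervals and limits given here cover counting error or spread between libraries, and nothing in the labels says whether libraries of a group came from separate animals, so p-values measure the spread between these samples. Acss2 itself, the check of the genotype labels, did not exceed 8.81 CPM in any of the 9 KO libraries, and the 8 WT libraries ran from 44.04 to 54.6 CPM. No pair of libraries had identical counts. The labelled tissue was checked with 8 markers of dentate granule cells, which summed to 162 to 626 CPM per library, and 8 of CA1 and CA3 pyramidal cells, at 482 to 1055 CPM. Neocortex markers were also present, unevenly. They summed to 786 CPM in male KO PBS library 752, which had the lowest CA1 and CA3 sum of the males (516 CPM). In male KO Tau libraries 712 and 713 they summed to 549 and 552 CPM. The other KO males had 162 to 240 CPM and the WT males 206 to 338 CPM.

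Per kilobase of exon, Cldn5 was the most abundant of the 10 at a mean of 34.1 CPM per kb over the 17 libraries, and Ly6c1 followed at 13.7. Slco1a4, Esam and Abcb1a came next at 6.47, 5.80 and 5.72 CPM per kb. Flt1, Pecam1, Cdh5 and Tek stood at 4.13, 3.76, 3.31 and 3.19, and Kdr was lowest at 1.83. Cldn5 over Ly6c1, Ly6c1 over Slco1a4, Abcb1a over Flt1 and Tek over Kdr were in that order in 17 of 17 libraries. Slco1a4 and Esam came in that order in only 8 of 17, and Esam and Abcb1a in 10. Over all libraries together, neither pair differed beyond its spread. The same holds of Pecam1 and Cdh5 and of Cdh5 and Tek, each in order in 12 of 17 libraries. Flt1 stood over Pecam1 in 15. In every female library, however, Slco1a4 stood over Esam and Pecam1 over Cdh5, while the males were mixed in both. Female KO Tau means were 10.4 CPM per kb for Slco1a4 and 6.83 for Esam. The lengths are those of the GENCODE annotation of the same assembly, since the release behind the counts is not given in the sources used here.

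**Figure D1:**
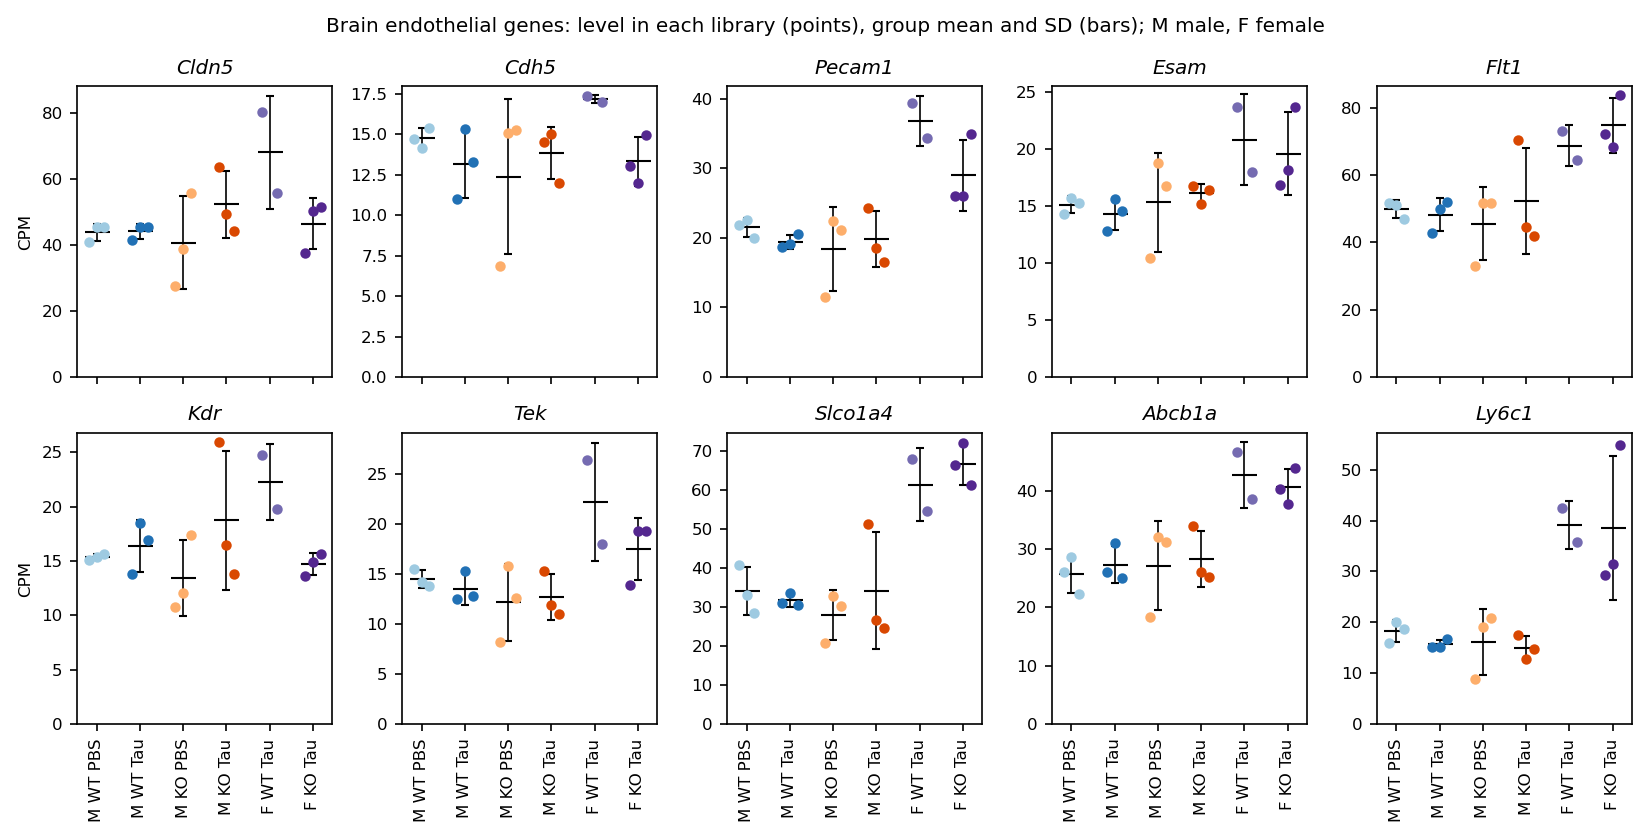
Level of each of the 10 endothelial genes in CPM (vertical axes from 0) in the 17 libraries, by group (M male, F female). Points are libraries and bars give the group mean and SD; Ly6c1, Slco1a4, Pecam1 and Abcb1a have every female point above every male point, and male KO PBS library 751 is the lowest point of its group in all 10 panels.

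The junction genes came first among the roles. Claudin-5 is the main claudin of the tight junctions between brain endothelial cells, and its gene Cldn5 lies at chromosome 16, 18776847 to 18778262 on the plus strand (GRCm38). Cldn5 measured 40.9, 45.4 and 45.5 CPM in male WT PBS libraries and 41.6, 45.6 and 45.5 in male WT Tau libraries. It measured 27.7, 38.8 and 55.8 CPM in male KO PBS, in the order of libraries 751, 752 and 753, and 63.8, 49.3 and 44.2 in male KO Tau, in the order 711, 712 and 713. In females it was 80.3 and 55.9 CPM in WT Tau libraries 331 and 341, and 37.5, 50.4 and 51.6 in KO Tau libraries 314, 324 and 325. The same order of libraries is kept for every gene that follows. The WT males held a narrow band of Cldn5 levels, the KO males spread to both sides of it, and both female WT libraries lay above all 3 of female KO. Among the males only library 711 reached the lower of the female WT values.

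VE-cadherin, encoded by Cdh5 (chromosome 8, 104101625 to 104144511 on the plus strand), is the cadherin of endothelial adherens junctions. Its levels were 14.7, 14.2 and 15.4 CPM in male WT PBS and 10.97, 15.3 and 13.3 CPM in male WT Tau. They were 6.85, 15.1 and 15.2 CPM in male KO PBS and 14.5, 15.01 and 11.998 CPM in male KO Tau. Female WT Tau libraries had 17.4 and 17.01 CPM and female KO Tau libraries 13.04, 11.96 and 14.9 CPM. Library 751 had less Cdh5 than any other of the 17, and the highest values were those of the WT females.

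Pecam1 (chromosome 11, 106654217 to 106750628 on the minus strand) encodes PECAM-1, or CD31, an adhesion molecule of the borders between endothelial cells. It was found at 21.9, 22.6 and 19.99 CPM in male WT PBS and at 18.7, 19.1 and 20.6 CPM in male WT Tau. The male KO PBS libraries had 11.5, 22.5 and 21.2 CPM, and the male KO Tau libraries 24.3, 18.6 and 16.6 CPM. The female WT Tau libraries had 39.4 and 34.3 CPM, and the female KO Tau libraries 26.02, 25.97 and 34.95 CPM. Every female library exceeded every male library, the nearest being library 324 at 26.0 CPM and library 711 at 24.3 CPM.

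ESAM, the endothelial cell-selective adhesion molecule of tight junctions, is encoded by Esam (chromosome 9, 37528078 to 37538319 on the plus strand). In male WT mice Esam was at 14.2, 15.7 and 15.3 CPM with PBS and 12.8, 15.6 and 14.5 CPM with Tau. In male KO mice it was at 10.4, 18.7 and 16.7 CPM with PBS and 16.7, 15.2 and 16.4 CPM with Tau. In Tau-injected females it was at 23.6 and 17.98 CPM in WT and 16.9, 18.2 and 23.7 CPM in KO. The females lay above the 6 Tau-injected males, but male KO PBS library 752 at 18.7 CPM reached into their range.

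The 3 receptor tyrosine kinases differed in which libraries stood highest. Flt1 (chromosome 5, 147561604 to 147726011 on the minus strand) encodes VEGFR1, which binds VEGF-A, VEGF-B and placental growth factor. Flt1 levels were 51.5, 51.2 and 46.9 CPM in male WT PBS, 42.8, 49.97 and 51.9 in male WT Tau and 32.97, 51.7 and 51.8 in male KO PBS. They were 70.2, 44.5 and 41.9 CPM in male KO Tau, 72.9 and 64.4 in female WT Tau and 72.2, 68.1 and 83.8 in female KO Tau. Only library 711 among the males reached the female range of Flt1.

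Kdr (chromosome 5, 75932827 to 75978458 on the minus strand) encodes VEGFR2, the main signalling receptor for VEGF-A. Its levels were 15.1, 15.3 and 15.6 CPM in male WT PBS, 13.8, 18.5 and 16.98 in male WT Tau and 10.8, 12.03 and 17.4 in male KO PBS. They were 25.99, 16.5 and 13.8 CPM in male KO Tau, 24.8 and 19.8 in female WT Tau and 13.6, 14.9 and 15.7 in female KO Tau. The highest Kdr value of all was that of male library 711, and the 3 female KO libraries lay within the male range.

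Tek (chromosome 4, 94739289 to 94874976 on the plus strand) encodes TIE2, the receptor for the angiopoietins. Male WT libraries had 15.5, 14.2 and 13.8 CPM with PBS and 12.5, 15.3 and 12.8 CPM with Tau, and male KO libraries 8.17, 15.8 and 12.6 CPM with PBS and 15.3, 11.9 and 10.96 CPM with Tau. Tek was at 26.4 and 18.03 CPM in female WT Tau and at 13.96, 19.3 and 19.3 CPM in female KO Tau. Library 331 stood well above the other 16, and female library 314 lay within the male range.

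Of the carriers, both had every female library above every male library. Slco1a4 (chromosome 6, 141805440 to 141856199 on the minus strand) encodes OATP1A4, an organic anion transporter of the barrier. It was measured at 40.7, 32.96 and 28.4 CPM in male WT PBS, 31.1, 33.6 and 30.5 in male WT Tau and 20.6, 32.7 and 30.3 in male KO PBS. The male KO Tau libraries had 51.3, 26.7 and 24.5 CPM, the female WT Tau libraries 67.8 and 54.7 and the female KO Tau libraries 66.3, 71.9 and 61.3. Of the males, library 711 came nearest to the lowest female value.

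Abcb1a (chromosome 5, 8660077 to 8748575 on the plus strand) encodes P-glycoprotein, the pump that returns many drugs to the blood. Its levels were 26.1, 28.7 and 22.4 CPM in male WT PBS and 26.1, 31.01 and 25.05 CPM in male WT Tau. They were 18.3, 32.04 and 31.2 CPM in male KO PBS and 33.9, 26.005 and 25.2 CPM in male KO Tau. Female WT Tau libraries had 46.8 and 38.7 CPM, and female KO Tau libraries 40.3, 37.8 and 43.9 CPM, again all above every male. Its close paralog Abcb1b had a mean of 5.54 CPM over the 17 libraries, and the counting could split reads between the 2 genes, so the level of each is uncertain to that extent.

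Ly6c1 (chromosome 15, 75044018 to 75048830 on the minus strand) encodes Ly6C1, a GPI-anchored surface protein of brain endothelium whose near-identical copy Ly6c2 marks monocytes. Ly6c1 was at 16.003, 20.1 and 18.7 CPM in male WT PBS, 15.2, 15.1 and 16.7 in male WT Tau and 8.78, 19.04 and 20.8 in male KO PBS. The male KO Tau libraries had 17.5, 12.9 and 14.7 CPM, with 42.4 and 35.8 in female WT Tau and 29.3, 31.4 and 54.9 in female KO Tau. The lowest female value, 29.3 CPM, stood well clear of the highest male value, 20.8 CPM in library 753. Ly6c2 was near 0, with at most 6 counts in any library, so few reads were assigned to that copy.

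Among the males, the first question was whether AD Tau changed endothelial genes in WT mice. With edgeR's quasi-likelihood test, 0 of 10 members passed an adjusted p of 0.05 and 0 had an unadjusted p under 0.05, where the percentages of all 15098 genes were 0% and 1.86%. The median member log2 fold change of Tau over PBS was -0.104, against -0.0085 over all genes, with 2 members higher and 8 lower. Ly6c1 had the largest value (log2 fold change -0.24, SE 0.25, edgeR adjusted p = 0.9999, 95% interval -0.79 to 0.31). Of the 86 other endothelial and barrier genes tested, 0 passed the adjusted threshold. DESeq2 and voom likewise called 0 members.

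In KO males, Tau against PBS gave 0 of 10 members past either threshold, against 0% and 7.95% of all genes for adjusted and unadjusted p. Of the members 9 were higher and 1 lower, and the median log2 fold change was 0.092. Kdr had the largest value (log2 fold change 0.44, SE 0.23, edgeR adjusted p = 0.648), with means of 18.8 ± 6.39 CPM (SD, n = 3) under Tau and 13.4 ± 3.504 CPM (SD, n = 3) under PBS. These values turned on single libraries. Without male KO PBS library 751, which was low in all 10 genes, the median was -0.17, and without male KO Tau library 711, which was the highest of its group in all but Cdh5, it was -0.12. With neither library, a setting chosen after seeing the data, it was -0.32 and still 0 members passed the adjusted threshold.

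The effect of the knockout alone was read in PBS-injected males. Again 0 of 10 members passed either threshold (0.00662% of all genes by adjusted p, which is Acss2 alone, and 4.42% by unadjusted p). The median log2 fold change of KO over WT was -0.14, and it was 0.087 without library 751. Slco1a4 had the largest difference (log2 fold change -0.24, SE 0.26, edgeR adjusted p = 0.999). Under Tau, KO over WT males gave 0 of 10 past either threshold against 0.00662% and 4.71% of genes, with a median of 0.11 that became -0.12 without library 711. Cldn5 had the largest value there (log2 fold change 0.27, SE 0.21, edgeR adjusted p = 0.927).

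Male KO Tau mice, which carry both the knockout and the injection, were set against male WT PBS mice. The adjusted test called 0 of 10 members and the unadjusted test 0 of 10, beside 0.00662% and 6.33% of all genes. Member log2 fold changes ran from -0.28 to 0.29 with a median of 0.044, and Kdr was at the upper end (log2 fold change 0.29, SE 0.23, edgeR adjusted p = 0.849). The Kdr difference was -0.021 without library 711.

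Averaging over the other factor did not bring a member past the test in males. For Tau averaged over genotypes, 0 of 10 passed either threshold against 0% and 5.38% of genes, and Kdr had the largest value (log2 fold change 0.26, SE 0.16, edgeR adjusted p = 0.898). For KO averaged over treatments, 0 of 10 passed against 0.00662% and 4.58%, and Tek had the largest value (log2 fold change -0.14, SE 0.15, edgeR adjusted p = 0.952). The interaction, that is, the Tau effect in KO minus that in WT, had 0 of 10 past either threshold against 0% and 4.18%. Its largest value belonged to Slco1a4 (log2 fold change 0.36, SE 0.37, edgeR adjusted p = 0.996), and it was -0.059 without library 711. DESeq2 and voom called 0 of 10 in each of these male comparisons. The intervals were wide: the 95% interval of Kdr in KO males, -0.069 to 0.94, leaves room for a change of nearly 1 log2 unit.

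Loss of Acss2 was also compared in Tau-injected females, with 2 WT and 3 KO libraries. By adjusted p 0 of 10 members passed (0.00649% of the 15419 genes tested), while 2 of 10 had an unadjusted p under 0.05 (2.89% of genes), both lower in KO. These were Cldn5, at 46.5 ± 7.81 CPM (SD, n = 3) in KO against 68.1 ± 17.2 CPM (SD, n = 2) in WT (log2 fold change -0.50, SE 0.18, edgeR adjusted p = 0.997), and Kdr, at 14.7 ± 1.04 CPM (SD, n = 3) against 22.3 ± 3.51 CPM (SD, n = 2) (log2 fold change -0.54, SE 0.23, edgeR adjusted p = 0.997). Neither is called a change, and DESeq2 and voom also called 0 of 10. The median over members was -0.16, against -0.01 over all genes, and Ly6c1 differed least (0.017, SE 0.22). Whether the knockout acted differently in the sexes under Tau was tested directly. The interaction of sex and genotype called 0 of 10 by adjusted p (0% of genes), and by unadjusted p 2 of 10, again Cldn5 (log2 fold change -0.77, SE 0.25, edgeR adjusted p = 0.978) and Kdr (log2 fold change -0.76, SE 0.32, edgeR adjusted p = 0.978), beside 2.94% of genes.

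**Figure D2:**
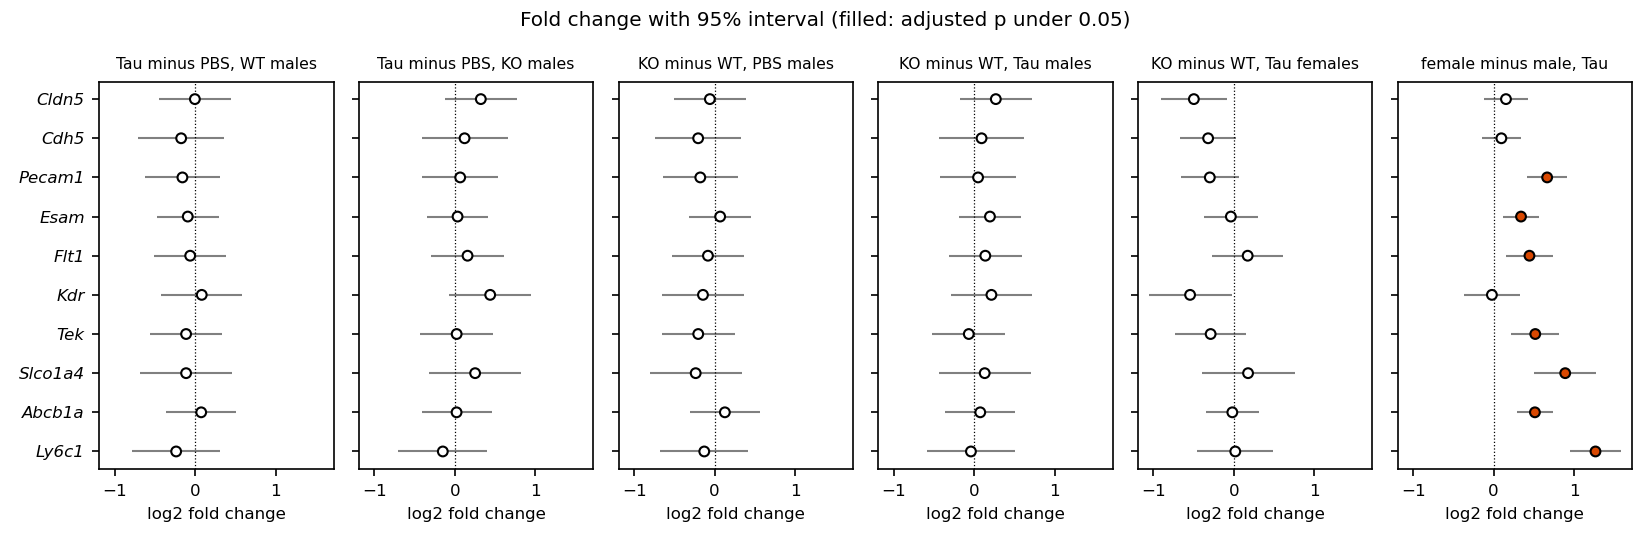
Log2 fold change of each of the 10 endothelial genes in 6 comparisons (horizontal axes, log2), with 95% intervals from the edgeR fit as bars and filled points where the adjusted p is under 0.05. Filled points occur only in the panel for female minus male Tau-injected mice, where 7 of 10 are filled and all 7 lie above 0.

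Female and male Tau-injected mice were compared over both genotypes, 5 female against 6 male libraries. The test called 7 of 10 members, all higher in females, where it called 23.8% of the 15419 genes tested in either direction and 11.4% as higher in females. Without adjustment 7 of 10 had p under 0.05, beside 39.8% of genes. The median member log2 fold change was 0.48, against -0.013 over all genes. In 5 of 10 members (Pecam1, Esam, Slco1a4, Abcb1a and Ly6c1) every female library lay above every male Tau library, which held for 6.76% of genes, and in 4 of these, all but Esam, above all 12 male libraries, which held for 5.45% of genes. The label numbers of all females begin with 3 and those of all males with 7. What the number means is not stated, so sex and number series cannot be told apart.

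Ly6c1 rose most in females over males (log2 fold change 1.27, SE 0.15, edgeR adjusted p = 0.00157, 95% interval 0.94 to 1.59). Of the transporters, Slco1a4 (log2 fold change 0.89, SE 0.18, edgeR adjusted p = 0.00954) and Abcb1a (log2 fold change 0.51, SE 0.101, edgeR adjusted p = 0.00948) were higher. Of the junction genes, Pecam1 (log2 fold change 0.67, SE 0.11, edgeR adjusted p = 0.00632) and Esam (log2 fold change 0.34, SE 0.104, edgeR adjusted p = 0.0363) were higher. Of the receptors, Tek (log2 fold change 0.52, SE 0.14, edgeR adjusted p = 0.0223) and Flt1 (log2 fold change 0.45, SE 0.13, edgeR adjusted p = 0.0342) were higher. The remaining 3 did not pass: Cldn5 had a log2 fold change of 0.15 with a 95% interval of -0.12 to 0.43, Cdh5 of 0.097 (-0.14 to 0.33) and Kdr of -0.021 (-0.37 to 0.33). The interval of Ly6c1 lay wholly above those 3 and above those of Esam, Flt1, Tek, Abcb1a and Pecam1, and it overlapped that of Slco1a4.

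The number of members called depended on the libraries. Leaving out female WT Tau library 331 left 2 members called, Ly6c1 and Pecam1, with log2 fold changes of 1.22 and 0.63, and the calls over all genes fell from 3674 to 628. Leaving out male WT Tau library 771 or 773 or male KO Tau library 713 left 4 members called each. Leaving out male KO Tau library 711 kept 7 called and raised the median to 0.61. Calls over all genes are given here only for the run without library 331. For the other runs and for the contrasts that follow, the member counts cannot be set against them. In the contrast of the WT groups, a setting chosen after seeing the data, 1 member was called, Ly6c1 (1.24, SE 0.22). All 11 Tau libraries stayed in the fit for this contrast and the next. In the contrast of the KO groups 2 were called, Ly6c1 (1.296, SE 0.199) and Slco1a4 (0.91, SE 0.24). Some uncalled members changed sign between the WT and KO contrasts. Cldn5 was at 0.54 and -0.23, Kdr at 0.36 and -0.40 and Cdh5 at 0.30 and -0.11. The members called in the main test were higher in females in both contrasts, with Esam at 0.46 and 0.22.

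Markers of several other cell types differed between the sexes as well. The counts of called markers that follow stand beside 23.8% of all 15419 genes called in this comparison, and some of them lie near that share. The summed level of 10 astrocyte markers was 8807 to 10010 CPM in females and 4452 to 8239 CPM in Tau-injected males, in whom library 711 alone exceeded 5292 CPM, and 6 of 10 were called, all higher. The 15 markers of mural cells, the pericytes and smooth muscle of the vessel wall, summed to 269 to 399 CPM in females and 215 to 297 in Tau-injected males, with 9 of 15 called. Microglial markers summed to 630 to 784 CPM against 491 to 660, with 5 of 10 called, and oligodendrocyte markers to 5118 to 12557 CPM against 3806 to 8002, with 2 of 10 called. Fibroblast markers (58 to 131 against 35 to 145 CPM, 1 of 8 called), dentate granule cell markers (162 to 477 against 196 to 488 CPM, 0 of 8 called), CA1 and CA3 markers (482 to 941 against 730 to 1055 CPM, 2 of 8 called) and neocortex markers (156 to 246 against 162 to 552 CPM, 4 of 8 called, all lower in females) complete the lists. Choroid plexus markers reached 5426 CPM in male KO Tau library 713 and were at 297 to 1124 CPM in the other Tau libraries, with 0 of 14 called. Of 5 red blood cell markers, 4 globin genes had at most 3 counts everywhere. These are alpha copies near-identical to each other and beta copies likewise. Alas2 was at 4.76 to 48.4 CPM in females against 2.50 to 7.70 CPM in Tau-injected males. The part of these cell types in the endothelial result was not tested. Apart from the globin genes, no listed marker was at or under 3 counts in every library.

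**Figure D3:**
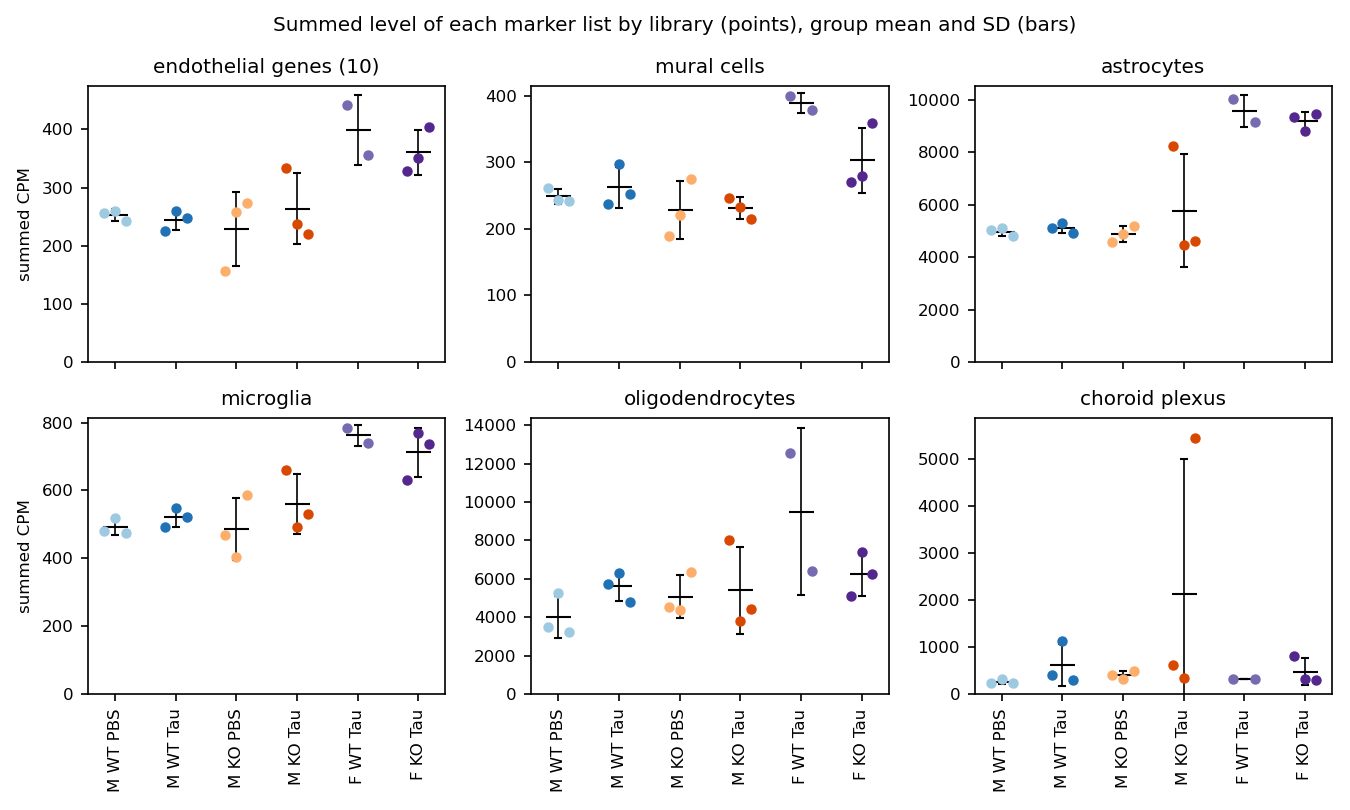
Summed level of 6 marker lists in CPM (vertical axes from 0) in the 17 libraries, by group (M male, F female), with the group mean and SD as bars. The 10 endothelial genes sum to 329 to 442 CPM in females and 156 to 334 CPM in males, astrocyte markers are higher in every female than in any male library, with male KO Tau library 711 nearest to the females, and choroid plexus markers are highest in male KO Tau library 713.

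The other endothelial and barrier genes, 90 in a list by role of which 86 were tested, give the surroundings of the 10. In the male comparisons and in the knockout comparison of females, 0 of 86 passed the adjusted threshold in edgeR, DESeq2 or voom on the same libraries. By unadjusted p under 0.05 in edgeR, 1 to 8 of 86 passed. The shares of all genes in edgeR were 0% to 0.00662% by adjusted p and 1.86% to 7.95% by unadjusted p. With library 711 left out, DESeq2 on only the groups compared called Nrp1 and Cd34 in KO over WT Tau males. In KO Tau over WT PBS males the same setting called these with Vegfa. Without library 752, it called Cav2 in KO over WT PBS males. Calls over all genes in these runs are not given here, so they are not read as a result about these genes. Between the sexes under Tau 35 of 86 passed, 33 higher and 2 lower in females, and the median log2 fold change was 0.35. Of all 15419 genes tested, 23.8% passed in either direction and 11.4% as higher in females. The counts by role that follow stand beside the same shares, and some of them lie near 23.8%. Voom called 51 of the 86, and DESeq2, which did not use the filter on low counts, called 40 of the 90 listed genes, among them Sele. The count by edgeR was 15 without library 331 and 54 without library 711. In the contrasts of the WT groups and of the KO groups, with all 11 Tau libraries in the fit, it was 4 and 13. The 23.8% belongs to the main edgeR fit. Counts by voom, by DESeq2, in these contrasts and without a library cannot be set against it.

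Ligands of the receptor kinases had 2 of 7 called. Angpt2, an angiopoietin that opposes TIE2 signalling, was at 3.53 and 5.48 CPM in female WT and 2.04, 3.49 and 2.36 in female KO, against 0.835, 1.97 and 1.43 in male WT and 1.01, 2.35 and 1.65 in male KO under Tau (log2 fold change 1.097, SE 0.28, edgeR adjusted p = 0.0212). Vegfa, the ligand of VEGFR1 and VEGFR2, was higher by a smaller step (log2 fold change 0.47, SE 0.15, edgeR adjusted p = 0.0456), and library 711 reached the female range. Vegfb, the most abundant of the ligands per length at 38.2 CPM per kb, did not pass (0.027, SE 0.093).

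Of the co-receptors and receptor partners 6 of 12 were called, all higher in females. They were the adhesion receptors Adgrl4 (log2 fold change 1.11) and Adgrf5 (0.74), the adrenomedullin receptor subunit Calcrl (1.04), the guidance receptor Robo4 (0.68), the phosphatase Ptprb (0.67), which removes phosphate from TIE2, and the BMP9 receptor Acvrl1 (0.59). S1pr1 and Nrp1, the most abundant of that role per length at 57.4 and 9.16 CPM per kb, did not pass, at 0.093 and 0.37. Among 10 junction genes Jam2 (0.66) and Ocln (0.59) were called, while Tjp1 (0.24) and Cdh2 (-0.089) were not.

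Transporters had 8 of 13 called, 7 higher and 1 lower in females. Mfsd2a, which brings docosahexaenoic acid into the brain, was at 30.4 and 29.2 CPM in female WT and 22.1, 21.7 and 26.9 in female KO, against at most 17.9 CPM in any male (log2 fold change 0.98, SE 0.11, edgeR adjusted p = 0.00144). Slc2a1, the glucose carrier GLUT1, was at 138 and 133 CPM in female WT and 106, 114 and 136 in female KO, against at most 97.4 CPM in any male (log2 fold change 0.56, SE 0.073, edgeR adjusted p = 0.00247). The amino acid carrier Slc38a5 (1.05), the transferrin receptor Tfrc (0.51) and the efflux pumps Abcb1b (0.58), Abcc4 (0.55) and Abcg2 (0.45) were also higher. Slc22a8, the organic anion transporter OAT3, was lower in females (log2 fold change -0.67, SE 0.17, edgeR adjusted p = 0.0222), and Slc3a2 did not pass (-0.19).

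Of 14 genes of the Wnt programme that builds the barrier, the receptor Fzd4 (0.59), its partner Tspan12 (0.83) and the transcription factor Lef1 (0.98) were called, and the ligand Wnt7b was not (0.0014). Endothelial transcription factors had 6 of 10 called: Tal1 (1.52), Erg (0.76), Klf2 (0.75), Gata2 (0.68), Fli1 (0.66) and Ets1 (0.43), with Sox18 not past the test (-0.12). Surface and caveola genes had 4 of 14 called, with Ly6a, a GPI-anchored relative of Ly6c1, ahead (log2 fold change 1.36, SE 0.16, edgeR adjusted p = 0.00157) of Clec14a (0.98), Podxl (0.66) and Tm4sf1 (0.55). Ly6e and Itm2a, the most abundant of that role per length at 44.6 and 23.1 CPM per kb, did not pass, at -0.35 and 0.33.

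Of the genes of leukocyte adhesion and fenestration 4 of 6 tested were called. Lrg1, the gene of the 86 with the largest difference, is a glycoprotein of activated venous endothelium. It was at 2.32 and 5.52 CPM in female WT and 5.22, 7.79 and 13.4 in female KO. In Tau-injected males Lrg1 was at 0.537, 0.657 and 1.33 CPM in WT and 0.757, 1.46 and 1.83 in KO (log2 fold change 2.37, SE 0.35, edgeR adjusted p = 0.00402). Male KO PBS library 752 had 3.63 CPM of Lrg1, above the lower female WT value. Vwf, von Willebrand factor, was at 46.02 and 63.3 CPM in female WT and 53.7, 69.8 and 70.2 in female KO, against 15.1 to 35.4 CPM over the 12 males (log2 fold change 1.42, SE 0.13, edgeR adjusted p = 5.69e-04). Icam1, which leukocytes bind on the vessel wall, was higher too (log2 fold change 1.23, SE 0.16, edgeR adjusted p = 0.00259), and Vcam1 did not pass (0.48, SE 0.18). Plvap, which forms the diaphragms of leaky vessels and is scarce in brain endothelium with a barrier, was lower in females (log2 fold change -0.44, SE 0.14, edgeR adjusted p = 0.0444). The lower calls of Plvap and Slc22a8 thus ran against the other 33.

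**Figure D4:**
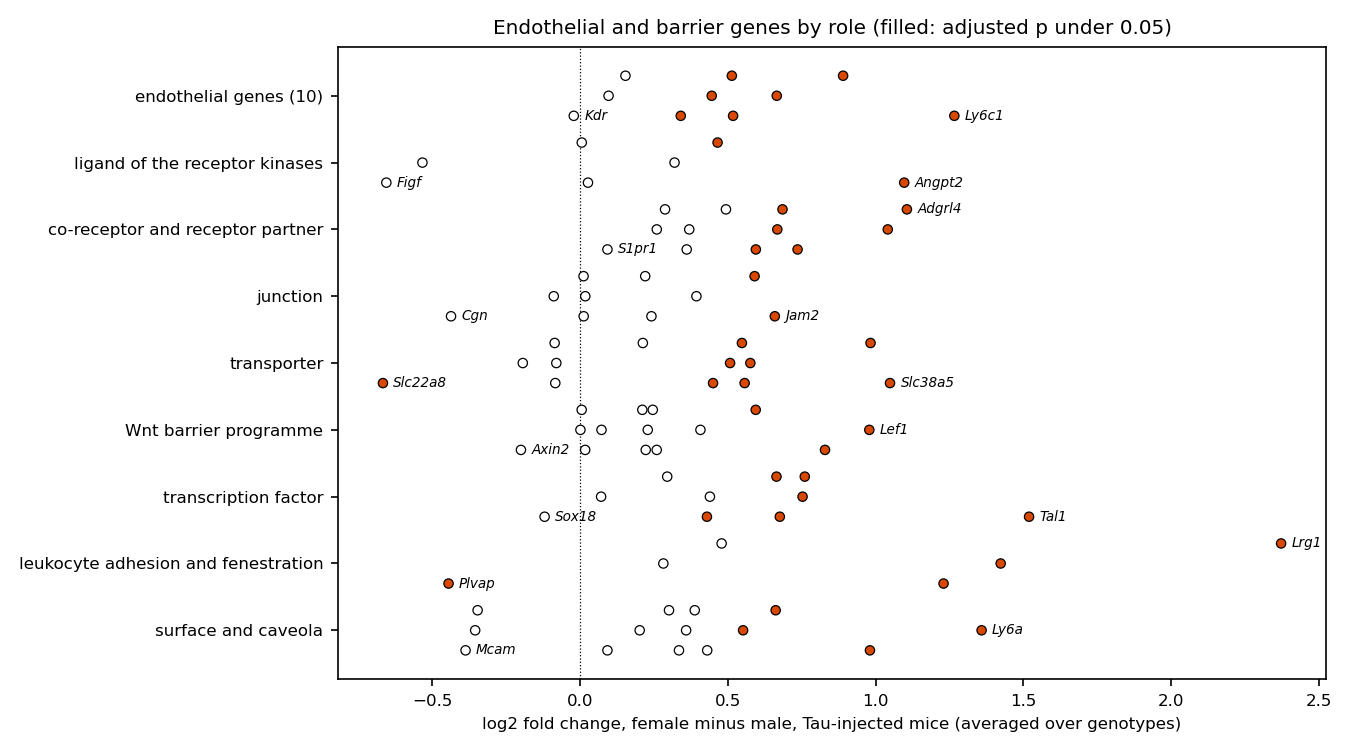
Log2 fold change of females over males among Tau-injected mice, averaged over genotypes (horizontal axis, log2), for the 10 endothelial genes and the 86 other endothelial and barrier genes tested, each point a gene in the row of its role, filled where the adjusted p is under 0.05. The lowest and highest gene of each row is named; 33 of the 35 filled points in the lower rows lie above 0, with Lrg1 farthest out at 2.37, and Plvap and Slc22a8 lie below 0.

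Within groups the 10 genes rose and fell together. Over the 17 libraries, after the mean of its group was taken from each log2 CPM value, the 45 pairs of members had a median Pearson r of 0.76, from 0.41 for Slco1a4 and Ly6c1 to 0.92 for Pecam1 and Flt1, and 0 pairs were negative. Each member set against the mean of the other 9 gave r from 0.70 for Slco1a4 to 0.95 for Pecam1, and 2.57% of the other genes reached the lowest of these. The points share their library, so depth and tissue composition are common to all genes in them, and no p is given. The spread came mostly from the KO males: the 10 genes summed to 156 CPM in library 751 against 258 and 273 CPM in libraries 752 and 753, and to 334 CPM in library 711 against 236 and 220 CPM in libraries 712 and 713. The 6 WT males lay between 225 and 260 CPM.

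The genes outside the 10 whose deviations were most like their mean were Adcy4, Tie1, Erg, Ptprb, Cspp1, Ppp1r18, Acvrl1, Nos3, 9530051G07Rik and Rassf2, among 15652 genes compared, with r from 0.90 to 0.96. Of these Tie1, the partner receptor of TIE2, Erg, Ptprb, Acvrl1 and Nos3, the endothelial nitric oxide synthase, were on the list of other endothelial genes. The median r with the 10 was 0.53 over the 86 other endothelial and barrier genes, 0.51 for astrocyte, 0.50 for mural, 0.48 for oligodendrocyte and 0.42 for microglial markers. It was -0.16 for dentate granule cell, -0.23 for CA1 and CA3 and -0.26 for choroid plexus markers. It was 0.12 for neocortex and 0.23 for fibroblast markers, and 0.075 over all genes compared, and Alas2 alone of the red blood cell markers gave 0.73. Library 751 had the highest dentate granule cell markers of the 17, at 626 CPM, and library 711 the highest astrocyte and microglial markers of the males, at 8239 and 660 CPM. Whether tissue composition makes the shared spread was not tested.

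**Figure D5:**
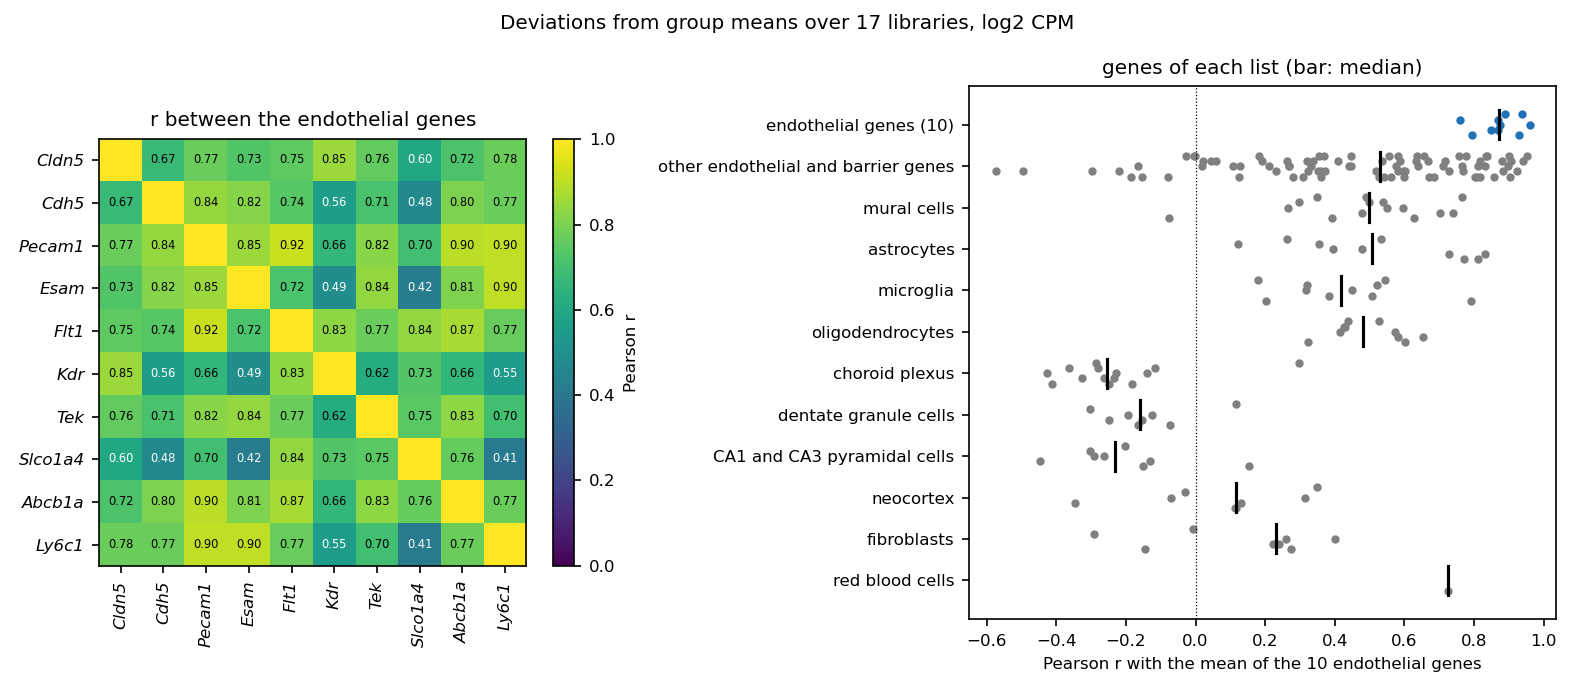
Left, Pearson r between the 10 endothelial genes over 17 libraries, from log2 CPM after subtraction of group means (colour scale from 0 to 1, values printed); right, r of each gene of 12 lists with the mean of the 10, each member counted in its own mean (horizontal axis), and the list median as a bar. All 45 pairs are positive, from 0.41 to 0.92, and of the lists only choroid plexus, dentate granule cell and CA1 and CA3 markers have medians under 0.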

How the data were processed

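Poly(A) RNA from dorsal hippocampus slices was sequenced in 17 libraries. Per the labels, the authors aligned reads with STAR 2.5.2 to mm10 (GRCm38), used SAMtools 1.1, and counted exons per gene with HTSeq 0.9.1 on the reverse strand. The deposited values are raw read counts per gene symbol, not normalized. The annotation release is not given in the sources used here. The library kit named in the labels is taken not to mark strand. Counting 1 strand would then leave out reads of a gene that fall on the other, and reads of a gene and of an antisense partner could not be told apart. The study tested male libraries with DESeq2.

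Here edgeR 4.0.16 (quasi-likelihood F-test, TMM factors, R 4.3.3) was fitted on the groups of 12 male libraries (15098 genes) and of 11 Tau libraries (15419 genes), after edgeR's filter on low counts (at least 10 counts, 15 in total). Benjamini-Hochberg adjustment ran over all genes tested, with a threshold of 0.05. SE was the absolute log2 fold change over the root of F. CPM values used total counts, and correlations were computed on log2 CPM (prior count 2). Alternatives were DESeq2 1.42.0, limma 3.58.1 voom with quality weights, RLE factors, no filter, only the groups compared, all 17 libraries and each library left out. Total counts of 14183131 to 22463635 set the floor of 3 counts.

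The 10 members and all gene lists were chosen with earlier results of these data known. All 10 members are given in every library. Statistics are printed for members with unadjusted p under 0.05 and for the largest fold change in each comparison, and in the other roles for the 2 genes most abundant per length, any gene past the threshold and close paralogs of members. The 10 genes most like the members were ranked by Pearson r. The labels' library numbers are not shared between groups.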

Additional observations from a re-analysis of the deposited data

How the results depend on the processing

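No male comparison, no interaction and no knockout comparison in females called a member under any alternative run. Between the sexes, DESeq2, voom, RLE factors and no filter each called 7 members as in the text, all 17 libraries together called 6, and leaving out 1 library called 2 to 7. The WT groups alone called 1 and the KO groups alone called 2, both chosen after seeing the data, as was leaving out libraries 711 and 751 together, which called 7. The Kdr difference of KO Tau over WT PBS males turned to -0.037 under voom, ran from -0.021 to 0.48 when 1 library was left out, and was -0.020 without 711 and 751. The Tau difference of Kdr in KO males was -0.0071 without 711 and 751, and the Slco1a4 interaction was -0.24. That interaction ran from -0.059 to 0.56 when 1 library was left out. The cause was not tested beyond the absence of those libraries. Reading only upstream bases of a promoter window in place of the whole window removed the GATA match of Tek and no other member match. No paired analysis was possible because the groups share no library number. Every member had at least 135 counts in each library, and groups held 2 or 3 libraries.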

Other observations

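Sele and Selp encode E-selectin and P-selectin, which catch leukocytes on activated endothelium. Both were under edgeR's filter on low counts, and they are named here because of their values. DESeq2, run without that filter, called Sele between the sexes under Tau. In female KO Tau library 325 Sele had 78 counts (4.85 CPM) and Selp 82 counts (5.10 CPM). In the other 16 libraries Sele had at most 6 counts and Selp at most 3, so both stand in 1 library alone. The same library had the highest values of Lrg1 (13.4 CPM, next 7.79), Icam1 (11.3 CPM, next 6.71), Slc38a5 (7.46 CPM, next 4.37), Ly6a (54.7 CPM, next 40.8), Tal1 (10.4 CPM, next 8.97) and Alas2 (48.4 CPM, next 20.9) of all 17. Of the 10 endothelial genes it was highest in Ly6c1, Flt1 and Esam. Without it 5 of the 10 were called between the sexes, and calls over all genes in that run are not given here.

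Aplnr, the apelin receptor, and Ly6c2 were also under that filter, each with at most 6 counts in any library.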
